A study of Mus musculus with 14 samples.

Results

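The MS4A genes described here are 8 mouse genes for tetraspan membrane proteins: Ms4a4a, Ms4a4c, Ms4a6b, Ms4a6c, Ms4a6d, Ms4a7, Ms4a8a and Ms4a14. They were taken by symbol from 55367 gene symbols in the deposited count tables, as the MS4A genes of myeloid cells without Ms4a2 and Ms4a3. The 8 were chosen by symbol with their fold changes in both comparisons already known, so those fold changes are given as a description and without p-values. The cells were lineage-negative mouse bone marrow primary cells, labelled wild-type, transduced with lentivirus and grown with IL3, IL6 and SCF. In the mutant experiment, 3 libraries were from cells with a luciferase control and 3 from cells with the SETBP1-D868N mutant, a change in SETBP1 found in myeloid leukemias. In the inhibitor experiment, all cells were labelled as carrying SETBP1-D868N, and 4 libraries were from DMSO-treated cells and 4 from cells given 2.5 µM PF-9363, an inhibitor of MYST histone acetyltransferases, for 4 days. The labels do not give the promoter of the transgene, the selection of transduced cells or whether replicates came from separate mice, so the spread between libraries may be technical.

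MS4A proteins cross the membrane several times and often work as accessory parts of receptors. The founding members are MS4A1, the B cell antigen CD20, and MS4A2, the beta chain of the high-affinity IgE receptor. Several others mark macrophages: MS4A4A sits beside the beta-glucan receptor dectin-1 in lipid rafts and supports SYK signalling, MS4A6D has been placed with VSIG4 in restraint of the NLRP3 inflammasome, and MS4A7 and MS4A8A mark subsets of tissue and alternatively activated macrophages.

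In GRCm38, the 21 annotated MS4A family genes lie in 1 run on chromosome 19, from 10962293 to 11640851, a span of 678.6 kb. Ms4a8a (chr19:11067471-11081102, minus strand) stands apart from the other 7, which lie between 11301249 and 11604849. Ms4a14 (chr19:11301249-11314454) and Ms4a7 (chr19:11321039-11336146) are on the minus strand, followed by Ms4a4a (chr19:11375523-11392790), Ms4a4c (chr19:11404770-11427246), Ms4a6c (chr19:11469366-11482192) and Ms4a6b (chr19:11516512-11531256) on the plus strand. Ms4a6d (chr19:11586604-11604849, minus strand) is the member nearest to Ms4a2 and Ms4a3. The annotated transcripts with most exons have between 6 and 8 exons per gene among the 8.

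The sequences just before the start sites are shown for the 4 genes with the highest ratio of PF-9363 to DMSO, and for Ms4a4c, which did not share that direction. Each is the 250 bases before the RefSeq start in GRCm38.p6, read 5′ to 3′ on the gene's strand, and capitals mark motif matches on either strand. Ms4a4a is chr19:11375238-11375487 on the plus strand, Ms4a14 is chr19:11314455-11314704, Ms4a8a is chr19:11081104-11081353 and Ms4a7 is chr19:11334696-11334945, all 3 on the minus strand, and Ms4a4c is chr19:11407411-11407660 on the plus strand. RefSeq lists a pair of starts for Ms4a7, and the one shown lies within the gene, outside the annotated exons. The window of the other start, chr19:11336147-11336396, lies directly before the annotated gene and held no match to any motif searched. The Ms4a4c window also lies within its annotated gene, which starts at 11404770, and outside the annotated exons.
Ms4a4a: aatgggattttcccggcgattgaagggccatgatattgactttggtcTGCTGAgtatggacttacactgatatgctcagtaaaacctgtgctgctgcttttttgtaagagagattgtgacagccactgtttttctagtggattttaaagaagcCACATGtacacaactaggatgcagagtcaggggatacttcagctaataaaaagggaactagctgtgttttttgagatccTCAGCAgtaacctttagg
Ms4a14: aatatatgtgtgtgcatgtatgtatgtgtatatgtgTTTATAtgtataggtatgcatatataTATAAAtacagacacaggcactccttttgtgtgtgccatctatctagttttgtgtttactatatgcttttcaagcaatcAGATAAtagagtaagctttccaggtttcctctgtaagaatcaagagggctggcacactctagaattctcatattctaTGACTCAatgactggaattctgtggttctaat
Ms4a8a: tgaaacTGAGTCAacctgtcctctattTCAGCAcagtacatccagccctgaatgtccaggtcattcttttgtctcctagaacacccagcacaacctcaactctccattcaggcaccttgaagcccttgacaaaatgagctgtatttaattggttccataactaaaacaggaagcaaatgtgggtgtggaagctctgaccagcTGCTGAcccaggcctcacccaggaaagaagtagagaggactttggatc
Ms4a7: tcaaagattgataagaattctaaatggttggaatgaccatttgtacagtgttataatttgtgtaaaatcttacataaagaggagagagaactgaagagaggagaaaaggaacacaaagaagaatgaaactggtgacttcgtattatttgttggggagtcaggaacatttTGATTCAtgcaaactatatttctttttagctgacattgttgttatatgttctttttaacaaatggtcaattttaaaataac
Ms4a4c: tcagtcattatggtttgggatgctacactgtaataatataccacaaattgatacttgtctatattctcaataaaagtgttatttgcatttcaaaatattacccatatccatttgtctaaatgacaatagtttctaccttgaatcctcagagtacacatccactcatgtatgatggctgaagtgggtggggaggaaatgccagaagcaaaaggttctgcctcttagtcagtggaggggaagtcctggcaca
RefSeq gave 8 promoters for 7 of the 8 genes. The AP-1 motif TGANTCA was in 3 of the 8, those of Ms4a14, Ms4a8a and the Ms4a7 start shown, 32, 244 and 81 bases before the start. It was in 6.75% of all 32851 promoters of the same length. The MAF half-site TGCTGA was in 2 of the 8, at 203 and 18 bases before the start of Ms4a4a and at 223 and 48 bases before that of Ms4a8a, and in 16.1% of all promoters. The Ms4a4a window also held the E-box CATGTG (12.3% of all promoters), and the Ms4a14 window held the GATA motif AGATAA (9.99%) and TATAAA (12.4%). No match overlapped another in these windows, and Ms4a4c had none. The PU.1-type motif GAGGAAG, the C/EBP-type motif TTGCNNAA and the E-box CACGTG were in none of the 8 and in 10.6%, 9.56% and 6.02% of all promoters. A match describes letters in the window and shows no binding.

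Libraries of the mutant experiment, called the first below, held 60147266 to 68730322 counts, and those of the inhibitor experiment, the second, held 7083731 to 10359093. CPM is the count scaled to the library total, here corrected for composition by TMM within each experiment, and levels are not compared across experiments. A gene with no count in the library of smallest scaled total could still lie at 0.0505 CPM in the first and 0.466 CPM in the second, the worth of 3 counts on that scale. Log2 CPM values of libraries of 1 group correlated at r = 0.995 to 0.996 (first experiment) and 0.985 to 0.990 (second), across genes, which are not independent replicates. Counts of luciferase replicate 1 differed from those of replicates 2 and 3 with a chi-square per degree of freedom of 27.1 and 27.7 over genes. It was 2.28 between replicates 2 and 3, and 8.03 to 12.8 between SETBP1-D868N libraries. By correlation of log2 CPM, luciferase replicate 1 did not stand apart, as all pairs of luciferase libraries were at r = 0.996. The mouse symbol Setbp1 had 5, 6 and 6 counts in luciferase, 23, 20 and 24 in SETBP1-D868N, and 3 in all 8 libraries of the second experiment together, where the mean CPM of the first experiment's SETBP1-D868N libraries would give 25 counts. The labels do not give the species of the transgene, so these counts may not report it, and the label of the second experiment was not checked. A gene was called changed at an adjusted p under 0.05 in edgeR's quasi-likelihood test over all genes tested, and log2 fold changes below are from that fit.

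Ms4a4a, Ms4a6d and Ms4a6c made up most of the summed level of the chosen MS4A genes in every group. Per kilobase of exon, Ms4a6d was the highest of these chosen genes in luciferase, at 63.6 ± 1.64 CPM per kb (SD, n = 3). Ms4a4a followed at 34.99 ± 0.68 CPM per kb, Ms4a6c at 26.3 ± 0.59 and Ms4a4c at 12.1 ± 0.27. The other 4 lay lower, in the order Ms4a6b at 1.11, Ms4a7 at 0.632, Ms4a8a at 0.143 and Ms4a14 at 0.0717 CPM per kb, and no neighbours in that order overlapped in range. In SETBP1-D868N, Ms4a6d stayed highest at 45.5 ± 2.15 CPM per kb, while Ms4a6c at 20.5 ± 1.19 and Ms4a4a at 18.9 ± 1.16 overlapped in range, as did Ms4a8a and Ms4a14.

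The order in the inhibitor experiment had Ms4a6d first in DMSO, and Ms4a4a and Ms4a6d in the first places with PF-9363. In DMSO, Ms4a6d was at 21.9 ± 0.22 CPM per kb (SD, n = 4), Ms4a4a at 16.2 ± 1.36 and Ms4a6c at 7.21 ± 0.80. Ms4a4c at 0.872, Ms4a7 at 0.823 and Ms4a6b at 0.806 CPM per kb overlapped in range, and so did Ms4a8a at 0.104 and Ms4a14 at 0.0356. With PF-9363, Ms4a4a was at 180 ± 8.21 CPM per kb and Ms4a6d at 146 ± 15.5, and their ranges did not overlap. With the length of the longest transcript in place of the exon union they were at 180 and 179 CPM per kb and overlapped, so their order depends on the length used. Ms4a6c at 28.6 and Ms4a7 at 11.9 CPM per kb came next, then Ms4a6b at 3.54, Ms4a8a at 3.06 and Ms4a14 at 1.92, where each neighbour overlapped the next, and Ms4a4c was last at 0.434. Of the summed level per kb of the 8 genes, Ms4a4a took 33.8% in DMSO and 47.9% with PF-9363, and 25.2% in luciferase and 19.5% in SETBP1-D868N.

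**Figure D1:**
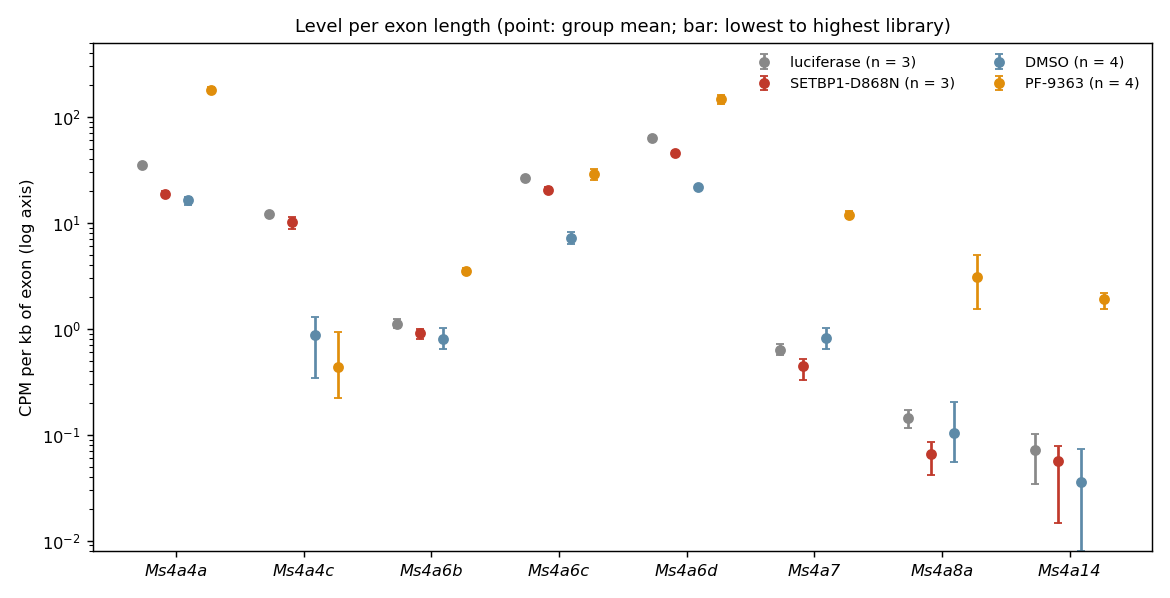
Mean CPM per kb of exon union (log axis) of the 8 MS4A genes, 1 point per group with a bar from the lowest to the highest library; a bar that reaches the lower edge includes a library at 0, and the 2 experiments were scaled separately. Ms4a6d and Ms4a4a are the highest 2 genes in each group but SETBP1-D868N, where Ms4a6c lies above Ms4a4a, and Ms4a4a with PF-9363 is the highest point, at 180 CPM per kb.

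The first comparison asks how the SETBP1 mutant changes expression in these cells. All 8 genes had lower mean CPM with SETBP1-D868N than with luciferase. Summed over the 8, the level was 223 ± 1.53 CPM in luciferase and 161 ± 7.43 CPM in SETBP1-D868N (SD, n = 3 each). By the test, 7 of 8 were called lower and Ms4a14 was not, where 22.7% of all 15794 genes tested were called lower and 47.2% were called in either direction. The median log2 fold change of the 8 was −0.42, and that of all genes tested was 0.0043. Groups did not overlap for 7 of the 8, against 56.7% of all genes tested. Since the 8 were picked with these values known, nothing is read from the counts. In bulk RNA, fewer cells of a type and less RNA per cell cannot be told apart, and marker levels of other cell types are given further on.

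Ms4a4a had the largest decrease among the well counted genes. It was at 28.7, 29.2 and 29.8 CPM in the luciferase libraries and at 14.9, 16.8 and 15.7 CPM in the SETBP1-D868N libraries, a log2 fold change of −0.89 (SE 0.050). Every mutant library was well below every control library. Ms4a6d, the most abundant of the 8, was at 114, 108 and 109 CPM against 76.1, 83.2 and 77.6 CPM, giving a log2 fold change of −0.48 (SE 0.037). Ms4a6c, a close paralog of the Ms4a6 group, was at 52.5, 54.7 and 54.6 CPM against 44.7, 41.6 and 39.9 CPM, giving a log2 fold change of −0.36 (SE 0.043). Neither gene had overlapping groups, and the calls of these 3 genes were kept in all 14 alternative analyses.

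The differences of the other genes were smaller in CPM or rested on fewer counts. Ms4a4c was at 21.7, 20.8 and 20.9 CPM in luciferase and 18.3, 19.8 and 15.3 CPM in SETBP1-D868N, a log2 fold change of −0.25 (SE 0.084). Ms4a6b was at 4.58, 4.79 and 5.52 CPM against 4.42, 4.19 and 3.58 CPM, giving a log2 fold change of −0.29 (SE 0.11), and only a small gap separated its groups. Ms4a7 was at 2.72, 3.22 and 2.49 CPM against 2.18, 2.29 and 1.45 CPM, giving a log2 fold change of −0.51 (SE 0.17). In each of these the lowest value was that of SETBP1-D868N replicate 3. Without luciferase replicate 1, 5 of the 8 were called lower. Leaving out luciferase replicate 2 left 3 of the 8 called lower, and leaving out luciferase replicate 3 or SETBP1-D868N replicate 3 left 4.

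Ms4a8a and Ms4a14 were near the limit of detection in the first experiment. Ms4a8a had 14, 20 and 15 counts in luciferase and 8, 10 and 5 in SETBP1-D868N, a ratio of 0.456 with a 95% counting interval of 0.265 to 0.762. Ms4a14 had 28, 9 and 19 counts against 20, 21 and 4, and its groups overlapped. Its ratio was 0.780 with a counting interval of 0.515 to 1.18, so a difference was not detectable at this depth. These intervals are exact (Clopper-Pearson), adjust for library size and cover counting error only.

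**Figure D2:**
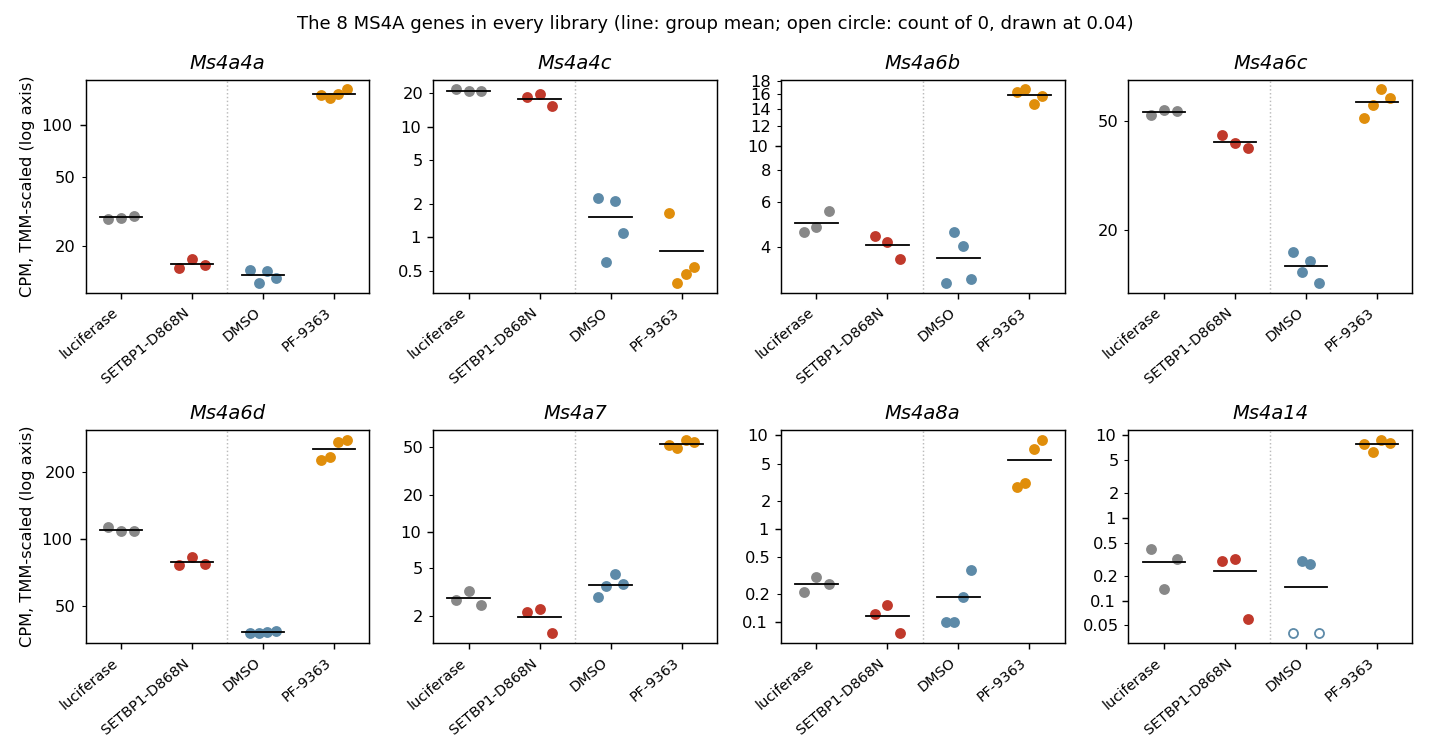
TMM-scaled CPM of each of the 8 genes (log axis, scaled within each experiment), 1 point per library and a line at the group mean; a dotted line parts the 2 experiments and open circles are counts of 0. PF-9363 libraries lie above all DMSO libraries in 7 panels, with Ms4a4a at 143 to 160 CPM against 12.2 to 14.6, and Ms4a4c is the panel where they overlap.

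The second comparison asks what inhibition of MYST acetyltransferases changes in cells labelled as carrying the mutant. Summed over the 8 genes, the level was 75.5 ± 3.28 CPM in DMSO and 546 ± 42.6 CPM with PF-9363 (SD, n = 4 each). By the test 7 of 8 were called higher, where 36.6% of all 13456 genes tested were, and the 7 were also at least 2-fold higher, where 15.8% of genes tested were called and at least 2-fold higher. Ms4a4c was not called; 39.4% of genes tested were called lower and 76.0% in either direction. The median log2 fold change of the 8 was 3.10, and that of all genes tested was −0.038. Groups did not overlap for the same 7, against 70.3% of all genes tested, and as before nothing is read from these counts.

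Ms4a4a, which supports dectin-1 signalling in macrophages, and Ms4a6d gave most of the signal added over the chosen MS4A genes. Ms4a4a was at 14.6, 12.2, 14.4 and 13.04 CPM in DMSO and at 149, 143, 149 and 160 CPM with PF-9363. The groups were far apart, at a log2 fold change of 3.47 (SE 0.082), or 11.1-fold. Ms4a6d was at 37.8, 37.5, 38.2 and 38.4 CPM in DMSO, a narrow range, and at 227, 234, 274 and 280 CPM with PF-9363. Its log2 fold change was 2.74 (SE 0.075), or 6.68-fold.

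Ms4a7, a marker of tissue macrophages, had a larger ratio from a lower base. It was at 2.87, 3.58, 4.49 and 3.71 CPM in DMSO and at 51.9, 49.1, 57.3 and 54.4 CPM with PF-9363. Every treated library was far above every control library, at a log2 fold change of 3.85 (SE 0.13), or 14.4-fold. Among all genes tested, 76 had a larger log2 fold change than Ms4a7, 138 a larger one than Ms4a4a and 358 a larger one than Ms4a6d.

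Ms4a6b and Ms4a6c, mouse paralogs of Ms4a6d, differed less. Ms4a6b was at 2.87, 4.58, 4.02 and 2.99 CPM in DMSO and at 16.3, 16.7, 14.6 and 15.8 CPM with PF-9363, a log2 fold change of 2.14 (SE 0.17). Ms4a6c was at 16.6, 14.1, 15.5 and 12.9 CPM in DMSO and at 51.4, 57.1, 65.2 and 60.5 CPM with PF-9363, a log2 fold change of 1.98 (SE 0.10). The DMSO and PF-9363 libraries did not overlap for either gene.

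Ms4a6c shares 993 of its 50-base stretches with an RNA annotated on the opposite strand, BE692007, and 48.6% of its own stretches were found in no other gene. BE692007 had 3 counts in luciferase and 5 in SETBP1-D868N, summed over libraries, beside 10334 and 8306 for Ms4a6c. In the second experiment it had 363 counts in DMSO and 1282 with PF-9363, equal to 58.7% and 66.7% of the Ms4a6c counts. Strand use in counting is not given in the sources used here, so reads of Ms4a6c and of BE692007 cannot be told apart, and the level of Ms4a6c is uncertain. For the other members matched here, 91.8% of stretches (Ms4a4c, which shares some with Ms4a4b) to 100% (Ms4a4a, Ms4a8a and Ms4a14) were found in no other gene.

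Ms4a14 and Ms4a8a, a gene induced in alternatively activated and tumour macrophages, were near the limit of detection in DMSO and counted in every library with PF-9363. Ms4a14 had 0, 3, 3 and 0 counts in DMSO and 77, 49, 57 and 75 with PF-9363, or 6.30 to 8.85 CPM. Its ratio over summed counts was 54.3, with a counting interval of 24.6 to 149. Ms4a8a had 1, 1, 2 and 4 counts in DMSO and 27, 24, 46 and 83 with PF-9363, a ratio of 28.4 with an interval of 14.1 to 66.8. Within PF-9363 its libraries fell into a lower pair at 2.78 and 3.09 CPM and a higher pair at 7.15 and 8.98 CPM, the widest relative spread of the 7 genes that were higher. The widths of these intervals follow from the few DMSO counts.

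Ms4a4c, an MS4A gene known to respond to interferon, did not share the direction. It had 23, 6, 23 and 12 counts in DMSO and 16, 3, 3 and 5 with PF-9363, or 2.28, 0.597, 2.15 and 1.09 CPM against 1.64, 0.386, 0.466 and 0.541 CPM. PF-9363 replicate 1 lay among the DMSO libraries and the groups overlapped. The log2 fold change was −0.92 (SE 0.48). Without PF-9363 replicate 1 it was −1.67 and Ms4a4c was called lower, as it was without DMSO replicate 2 and under library size alone, and over the 16 alternatives it ranged from −1.67 to −0.68.

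Other genes of the cluster did not all go the same way. Ms4a2, in mast cells and basophils, was higher in the test group of both comparisons, at 225 ± 4.98 and 354 ± 6.20 CPM in luciferase and SETBP1-D868N and at 56.2 ± 4.38 and 217 ± 8.86 CPM in DMSO and PF-9363. Ms4a3, a gene of granulocyte and monocyte progenitors, was at 312 ± 5.10 and 394 ± 6.92 CPM in the first experiment and at 422 ± 42.4 and 19.0 ± 8.06 CPM in the second (log2 fold change −4.47, SE 0.27). Both had been set aside when the 8 were chosen, so they too are given without a test. Ms4a4b, known from T cells, fell from 2.86 ± 0.17 to 1.67 ± 0.13 CPM with SETBP1-D868N (log2 fold change −0.78, edgeR adjusted p = 2.21e-04) and had 31 counts in DMSO and 6 with PF-9363, too few for the fit. That is a ratio of 0.244 with a counting interval of 0.0833 to 0.595, and the groups did not overlap. Ms4a5, Ms4a12, Ms4a13, Ms4a18 and Ms4a19 had no count in any library, and Ms4a1, the B cell antigen gene, had 15 and 4 counts in luciferase and SETBP1-D868N and 0 in the second experiment.

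**Figure D3:**
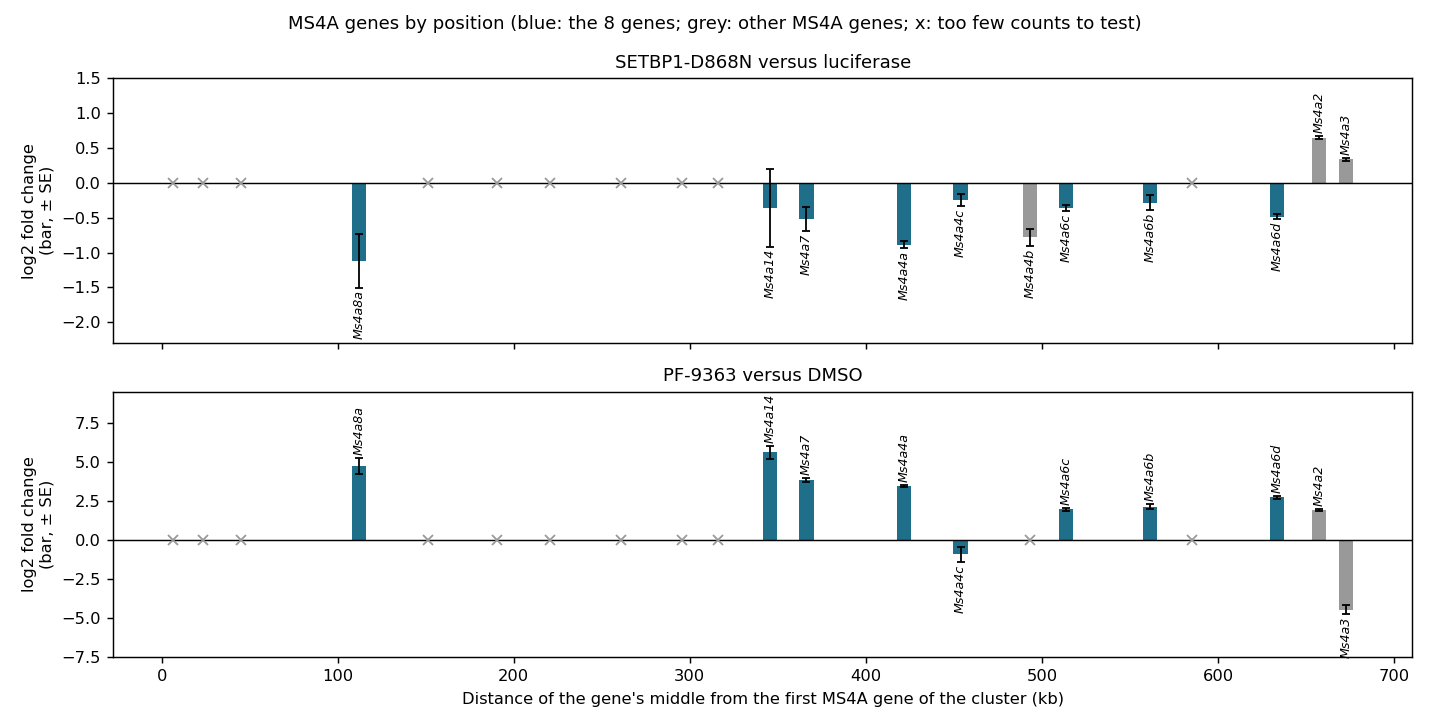
Fitted log2 fold change (bar, ± SE) of the MS4A genes against their distance in kb from the first gene of the cluster, for SETBP1-D868N versus luciferase (upper) and PF-9363 versus DMSO (lower); crosses are genes with too few counts to test. The blue bars of the 8 genes point down in the upper panel and, except for Ms4a4c, up in the lower one; the bars of Ms4a8a and Ms4a14 in the lower panel rest on 8 and 6 DMSO counts, so their height depends on the fit.

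Genes outside the family but close to it were mixed. Within 500 kb of the cluster or inside it, 27 non-MS4A genes were tested in the first comparison, of which 6 rose, 9 fell and 12 did not pass. In the second, 21 were tested, of which 12 rose, 5 fell and 4 did not pass. Of all genes tested, 24.5% were called higher and 22.7% lower in the first comparison, and 36.6% and 39.4% in the second. Nothing about the locus is read from these counts. Slc15a3, a lysosomal peptide transporter gene before the cluster, fell with SETBP1-D868N (log2 fold change −0.72, edgeR adjusted p = 2.04e-07) and rose with PF-9363 from 20.9 ± 1.07 to 252 ± 28.3 CPM (3.59, adjusted p = 5.13e-24). The nearest tested coding gene before the cluster, Ccdc86, rose in both comparisons, by 0.14 (adjusted p = 0.0151, lost without luciferase replicate 2 or 3 or SETBP1-D868N replicate 2) and 0.68 (adjusted p = 2.59e-05) on the log2 scale. The nearest after it, Oosp1, rose by 0.47 (adjusted p = 0.0106) and then fell by 2.66 on the log2 scale with PF-9363 (adjusted p = 1.38e-05). Slc15a3 was singled out after its values were seen, so its adjusted p-values are descriptive only.

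Genes that act with MS4A proteins were measured from a list of 11. This list and those below were drawn up with earlier results of these data known. Their adjusted p-values are therefore descriptive and are no independent tests. The shares of all genes called, given above, belong beside the counts of each list. Kit and Fcer1a of that list are on the mast cell marker list as well. With SETBP1-D868N, 9 of the 10 tested fell and 1 rose, with a median log2 fold change of −0.47. Cav1, for the raft protein caveolin, fell by 0.70 on the log2 scale (edgeR adjusted p = 4.02e-04). Trem2, a lipid receptor of macrophages whose shed form is tied to MS4A4A, fell by 0.47 (adjusted p = 2.28e-04), from 32.7 ± 0.86 to 23.6 ± 2.49 CPM. Clec7a, for dectin-1, fell by 0.38 (adjusted p = 0.0464), a call lost in 6 of 14 alternatives, those without luciferase replicate 1, 2 or 3 or SETBP1-D868N replicate 1 among them. Card9, which relays dectin-1 signals, was the gene that rose, by 0.12 on the log2 scale (adjusted p = 0.0427), a call also lost in 6 of 14, with luciferase replicate 1 or SETBP1-D868N replicate 1 or 2 left out among them.

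With PF-9363, 8 of the 9 partner genes tested rose and none fell, with a median log2 fold change of 1.72. Clec7a rose most, from 44.7 ± 1.52 to 1051 ± 115 CPM (log2 fold change 4.56, edgeR adjusted p = 3.90e-26). Trem2 rose from 20.4 ± 2.16 to 138 ± 10.6 CPM (2.76, adjusted p = 1.27e-21), and Nlrp3, the inflammasome sensor, rose from 15.8 ± 1.51 to 96.2 ± 4.53 CPM. Syk, the kinase under dectin-1, rose least of the 8, by 1.16 on the log2 scale. Card9 did not pass, at 105 ± 10.7 and 118 ± 10.8 CPM (edgeR adjusted p = 0.0517). It was called higher in 6 of 16 alternatives, with RLE scaling, a filter on mean counts, a replicate block, or DMSO replicate 3 or PF-9363 replicate 3 or 4 left out, and its log2 fold change was −0.062 under library size alone. The 2 partners of the list that were not tested were Cav1 and Vsig4. Cav1 had 2 counts in DMSO and 35 with PF-9363, summed over libraries. Vsig4 had 1 and 3, and no count in any library of the first experiment, where it was not tested either.

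Macrophage transcription factors were given by a list of 10. With SETBP1-D868N, 8 of 10 fell and 1 rose, with a median of −0.45 on the log2 scale. Maf, a leucine zipper factor of macrophages, fell from 13.5 ± 0.10 to 7.90 ± 0.58 CPM. Tfec, a macrophage factor of the MITF family, was the one that rose, by 0.31 on the log2 scale (edgeR adjusted p = 7.94e-07). With PF-9363, 8 of 9 rose and 1 fell, with a median of 1.09. Maf rose from 13.3 ± 0.80 to 75.9 ± 3.07 CPM, Spi1, for PU.1, rose by 0.67 on the log2 scale, and Tfec was the one that fell, by 1.01 on the log2 scale (adjusted p = 2.14e-14).

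Interferon-stimulated genes and genes of alternative activation are known settings of MS4A expression. Of 10 interferon-stimulated genes tested with SETBP1-D868N, 6 fell, none rose and 4 did not pass, with a median log2 fold change of −0.70. Of the 6 tested with PF-9363, 4 rose and 1 fell: Usp18, a brake on interferon signalling, rose from 1.62 ± 0.28 to 12.7 ± 1.32 CPM, Irf7 rose by 1.51 on the log2 scale, and Ifit2 fell by 2.37 on the log2 scale. Of the alternative activation genes, 7 of 7 tested fell with SETBP1-D868N, among them Arg1, for arginase, from 276 ± 15.8 to 101 ± 7.11 CPM. With PF-9363, 6 of 8 rose and 2 fell. Mrc1, the mannose receptor gene, rose from 230 ± 22.5 to 2076 ± 227 CPM, whereas Retnla fell from 22.7 ± 3.12 to 10.8 ± 1.39 CPM and Cd163 from 1.84 ± 0.80 to 0.293 ± 0.22 CPM; without DMSO replicate 3 or 4, Cd163 had too few counts to be tested. Mrc1 and Cd163 are on the macrophage marker list as well. Stab1 rose by 0.35 on the log2 scale, a call that did not hold under library size alone or without DMSO replicate 3 or PF-9363 replicate 4.

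**Figure D4:**
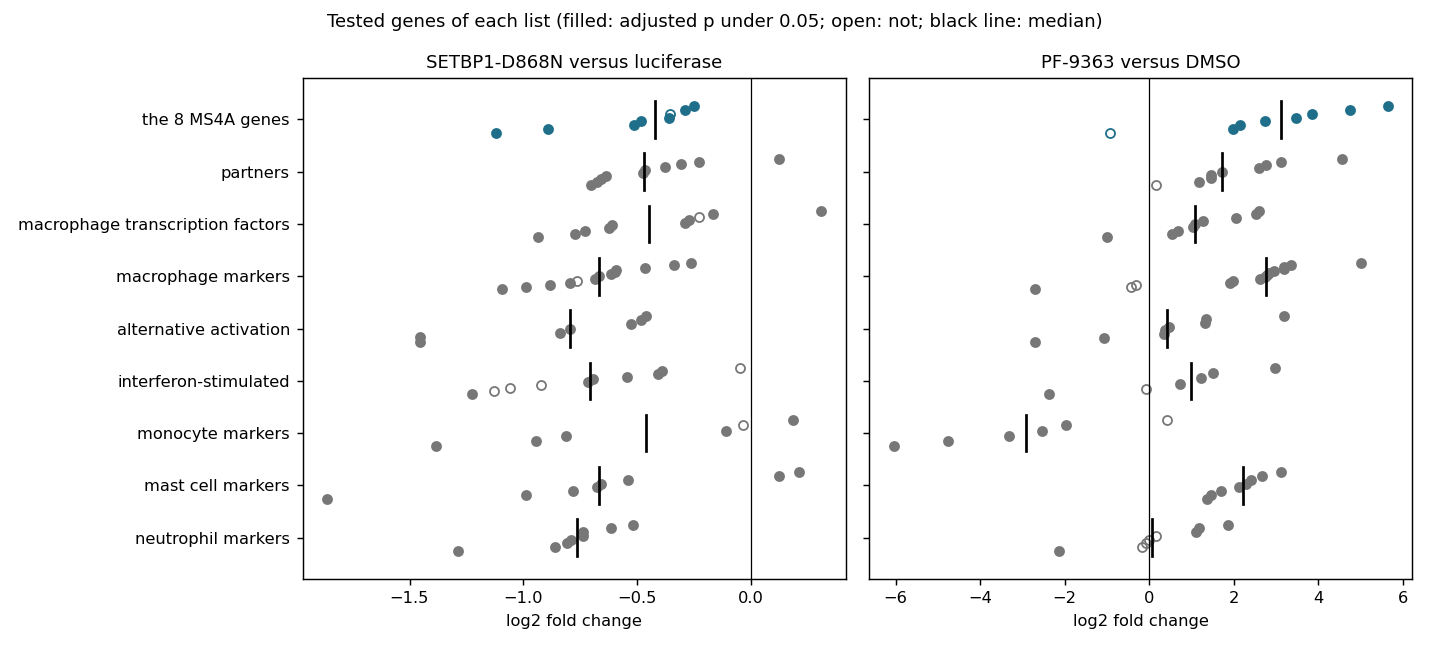
Log2 fold change of each tested gene in the 8 MS4A genes (blue) and 8 other lists (grey), for both comparisons; filled points passed an adjusted p of 0.05, open points did not, and black lines are medians. The medians of the MS4A genes, partners, macrophage factors and macrophage markers lie below 0 on the left and above 0 on the right, while the monocyte median lies at −0.46 and −2.92.

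The cultures were mixed, and markers of several cell types moved with the MS4A genes. Of the 14 macrophage markers, 12 of 13 tested fell with SETBP1-D868N and 11 of 14 rose with PF-9363, where 1, Cd163, fell. Their summed level was 934 to 964 CPM in luciferase, 573 to 604 CPM in SETBP1-D868N, 439 to 541 CPM in DMSO and 3191 to 3834 CPM with PF-9363, and none was at 0 in any group. Csf1r, the receptor for the macrophage growth factor, fell by 0.60 on the log2 scale with SETBP1-D868N and rose by 2.77 with PF-9363. Of the 6 monocyte markers 4 fell and 1 rose in the first comparison (2 fell without luciferase replicate 2 or 3, and with a replicate block), and 5 fell and none rose in the second. Their sum was 1635 to 1666, 1461 to 1479, 3613 to 3781 and 460 to 639 CPM in the 4 groups in the same order.

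Mast cell markers followed the MS4A genes as well: 6 of 8 fell and 2 rose with SETBP1-D868N, and 8 of 8 rose with PF-9363. Their sum was 3856 to 4083 CPM in luciferase, 2917 to 3012 in SETBP1-D868N, 791 to 993 in DMSO and 4172 to 5206 CPM with PF-9363, and none was at 0. Dendritic markers fell in 6 of 7 tested and then rose in 3 of 5 with 1 fall, with sums of 1869 to 1975, 941 to 1116, 182 to 214 and 849 to 1068 CPM. Neutrophil markers fell in 8 of 8 with SETBP1-D868N, whereas with PF-9363 3 rose, 1 fell (2 without DMSO replicate 2) and 4 did not pass. Of 4 basophil markers 3 rose in each comparison and none fell, although 1 was called lower without SETBP1-D868N replicate 3 in the first and without DMSO replicate 1 in the second. The part of these cell types in the MS4A values was not tested. T and NK markers summed to 3.31 CPM at most over the group means, with Cd3e, Cd3g and Klrb1c at 0 in the second experiment, and B cell markers to 8.28 CPM, with Ebf1 and Blk among those at 0 there.

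Genes with the pattern most like each member were found by the root mean square difference of log2 CPM, each centred on its control group, over all 14 libraries and 11208 genes. These 11208 left out all MS4A genes and symbols that are clone names or identifiers. The nearest to Ms4a6d were Psap at 0.047, Pea15a at 0.076 and the mast cell protease gene Cpa3 at 0.083. Marcks was nearest to Ms4a4a, at 0.13, and was followed by Il1f9 and Cxcl16, both at 0.15. Galnt10 lay 0.086 from Ms4a6c and Grm6 lay 0.16 from Ms4a6b. Bst1 was nearest to Ms4a7, at 0.18, and second to Ms4a8a, behind Ccl8 at 0.34. Ms4a14 had Mcoln3 at 0.43 and then Clec7a at 0.57. Some of these depended on the prior count, the amount added to each count before the log, here 2. With 0.5, Clec7a was no longer among the 3 nearest to Ms4a14. Likewise Ccl8 and Bst1 were lost for Ms4a8a, and Il1f9 and Cxcl16 for Ms4a4a. The nearest to Ms4a4c was Ndufaf2 at 0.35 with a prior count of 2 and Tssk6 at 0.41 with 0.5. When the members were ranked against those genes separately, for no member was another of the 8 as near as its 3 nearest genes. Such likeness is a description over libraries that share their controls.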

How the data were processed

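Gene counts were deposited by the authors as whole-number raw counts for 6 libraries of the first experiment and 8 of the second. Per the labels' protocols, libraries were of polyA RNA, from 500 ng of total RNA in the first and 100 ng in the second, prepared differently, so each experiment was analysed alone. Per the submitters' processing notes, STAR, DESeq2 and GRCm38 (mm10) were used; the counting program and strand setting are not given in the sources used here. Genes kept by the expression filter of edgeR 4.0.16 (minimum count 10, minimum total 15) were tested in R 4.3.3 with TMM scaling, robust quasi-likelihood dispersions and Benjamini-Hochberg adjustment over all genes tested. All 8 members passed that filter in both experiments. Levels per kb used the GENCODE M21 exon union, and promoters came from RefSeq. The members and gene lists were chosen with earlier results of these data known, so adjusted p-values of listed genes are descriptive. Named genes are all members, the other MS4A genes, the 3 genes most like each member or the first of them, the nearest tested coding genes, and from each list up to 2 extremes that passed and up to 4 whose function bears on a member. The code was tested on simulated data with 200 genes changed 2-fold: 84% of those in the first and 86% in the second comparison were recovered, over 15627 and 13264 genes, with 100% at mean counts of 100 or more but 37.3% and 62.2% below that. Of the genes called there, 4% and 5.49% were unchanged ones. Far fewer genes changed than were called in the data, so the simulation does not bear on scaling under widespread change. Alternatives were DESeq2 1.42.0, limma 3.58.1 (voom), other scalings and filters, a replicate block and leaving out each library.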

Additional observations from a re-analysis of the deposited data

Results flagged for a closer look

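In groups of 4 libraries, Dixon's test at the 95% level marked 8 of the 194 groups examined (97 genes in 2 groups), where chance gives about 1 in 20. Among the 8 MS4A genes it marked Ms4a4c, at 1.64 CPM in PF-9363 replicate 1 where the other 3 libraries lay at 0.386 to 0.541 CPM. PF-9363 replicate 4 was highest for the MS4A relative Tmem176b at 4.87 CPM and for the B cell gene Cd79b at 0.216 CPM. PF-9363 replicate 3 was lowest for Nr1h3 at 4.97 CPM, Isg15 at 4.35 CPM and Camp at 19.0 CPM. DMSO replicate 2 was highest for Ccr2 at 838 CPM, and DMSO replicate 4 was highest for Itgam at 270.0 CPM.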

How the results depend on the processing

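With PF-9363, 7 members stayed higher and called in all 16 alternatives; Ms4a4c was called in 3 of 16, so 1 member was called lower instead of 0 under library size alone, without DMSO replicate 2 and without PF-9363 replicate 1. With SETBP1-D868N, Ms4a4a, Ms4a6c and Ms4a6d kept their calls in all 14; Ms4a7 kept its call in 11, Ms4a4c in 9, Ms4a8a in 8 and Ms4a6b in 5. The number called lower, 7, ranged from 3 to 6 when 1 library was left out: 3 without luciferase replicate 2, 4 without luciferase replicate 3 and 4 without SETBP1-D868N replicate 3. Reversed values, none of them called, were Ms4a14 at 0.014 without luciferase replicate 1 and 0.096 without SETBP1-D868N replicate 3 (−0.69 to 0.096 when 1 library was left out), Tmem176a with PF-9363 at 0.078 without PF-9363 replicate 1 (−0.33 to 0.078), Card9 with PF-9363 at −0.062 under library size alone, Ifit2 with SETBP1-D868N at 0.0036 under library size alone, 0.00020 without luciferase replicate 3 and 0.0076 without SETBP1-D868N replicate 3 (−0.13 to 0.0076), and Ccr2 with SETBP1-D868N at 0.017 under library size alone. The cause was not tested. Library size alone shifted the median log2 fold change of all genes tested by −0.23 in the second comparison. With DESeq2 the median differed by 0.11, but over a wider set of genes, kept without the expression filter. Dropping that filter in edgeR moved the median by 0.078. Under library size alone, the share of calls that were higher went from 51.9% to 62.1% in the first and from 48.1% to 36.2% in the second. Same-numbered replicates did not deviate together (r = −0.097 to −0.037 and −0.041 to 0.014), so no pairing by number was seen. With so few replicates per group, a weak pairing would go unseen. With a replicate block 6 members were called lower in the first comparison and 7 higher in the second. All-gene calls were then 3416 higher and 3224 lower in the first, and 4885 higher and 5239 lower in the second. Leaving out 1 library, or taking the longest transcript, swapped neighbours of overlapping range in the order per kb. A prior count of 0.5 changed which genes were the 3 nearest for 3 members, Ms4a4a, Ms4a8a and Ms4a14. Few counts limit Ms4a8a and Ms4a14 in luciferase, SETBP1-D868N and DMSO.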
